A study of Mus musculus with 4 samples.

Results

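The genes described here encode collagen chains, laminin chains and a set of further matrix and mesenchymal proteins, measured by Long RNA-seq in cultured mouse cells that the study describes as female germline stem cells (FGSCs). Members were the protein-coding genes whose symbol is that of a collagen chain (Col, a number, a, a number) or a laminin chain (Lama, Lamb or Lamc and a number), together with *Dcn*, *Lum*, *Bgn*, *Fn1*, *Sparc*, *Postn*, *Fbn1*, *Eln*, *Thy1*, *Pdgfra*, *Pdgfrb* and *Vim*. This gave 67 of the 53465 genes in the deposited table, of which 22040 were protein-coding. They comprised 44 collagen chains, 11 laminin chains and 12 other genes.

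The study asked what loss of NAT10, the enzyme that writes N4-acetylcytidine (ac4C) on RNA, does to FGSCs. Both groups were cultures of these cells, infected with a lentivirus and selected with puromycin or blasticidin: shNC carried a control shRNA and shNAT10 an shRNA against *Nat10*, with 2 libraries each. The labels give the tissue as ovary and the cells as germ stem cells. They do not say whether the libraries of a group came from separate infections, though the study's legend calls them biological replicates. The p-values therefore measure the spread between these libraries, which limma moderates by that of other genes. The age of the donor mice is not given in the sources used here.

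The study's reagent list holds 3 *Nat10* shRNA targets and does not say which was used for these libraries. They are shown because the whole comparison rests on them. The letters are the target site in the *Nat10* mRNA, read from 5′ to 3′, and no base is set in capitals.
Y24155: ttgctgttcacccagattatc
Y24156: agagtgggaccttgaacttaa
Y24157: gcagtggagaagtggcttaat

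Matched to GENCODE M21 transcripts on GRCm38, Y24155 lay in exon 18 of *Nat10* (chr2:103731978-103731998, minus strand). Y24156 lay in exon 4 (chr2:103754169-103754189) and Y24157 in exon 14 (chr2:103734449-103734469), all within the coding sequence. Each matched only *Nat10* exactly. No exact match, in either orientation, occurred in the 365 annotated transcripts of the 67 matrix genes. *Nat10* itself had 7.79 and 5.42 FPKM (fragments per kilobase of exon, scaled for depth) in shNC and 2.95 and 3.04 FPKM in shNAT10. The groups did not overlap, and the log2 fold change came to -1.09 (standard error 0.21, limma adjusted p = 0.123).

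The extracellular matrix is built from a small number of protein families with distinct architectures. Fibrillar collagens, chiefly types I, III and V, assemble as trimers into the rope-like fibres of connective tissue. Type IV collagen forms a sheet-like network in basement membranes, and laminins, each a trimer of an alpha, a beta and a gamma chain, form the second network of that sheet and are bound by integrins on the cell. In the ovary, basement membranes surround each follicle and separate granulosa cells from the stroma, while fibroblast-like stromal cells supply most of the fibrillar collagen.

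The libraries held 11.1 to 14.9 M fragments (M for mega) on genes, recovered from FPKM and exon length. The share of these on protein-coding genes was 50.02% and 58.8% in shNC and 69.9% and 68.4% in shNAT10, so library composition moved with the group; its part in the results was not tested. The deposited values were already scaled to median-ratio factors of 1 in every library. Germline markers were scarce: 7 of 18 were listed at 0 in all 4 libraries, among them *Pou5f1* and *Dazl*, *Ddx4* was above 0 in a single library, and *Ifitm3* and *Etv5* alone reached a mean of 1 FPKM in both groups. Of 19 leukocyte and mast cell markers, 12 reached that level, with *Cpa3* at 245 to 272 FPKM and *Cd53* at 121 to 196 FPKM. These marker levels go against the label of germ stem cells. For its FGSCs the study itself reports DDX4 and OCT4 immunofluorescence, and RT-PCR of *Ddx4*, *Oct4*, *Blimp1* and *Fragilis*. The groups are called here by their names, shNC and shNAT10.

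Which matrix genes were expressed was examined first. A gene was counted as expressed when its mean was at least 1 FPKM in both groups. By that measure 19 of the 67 genes (28.4%) were expressed, against 42.6% of all protein-coding genes. A further 30 were above 0 in all 4 libraries without reaching that level in both groups, 13 were above 0 in some libraries only, and 5 were listed at 0 throughout. At 0.5 FPKM 26 genes would count as expressed, and at 2 FPKM 15 would.

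**Figure D1:**
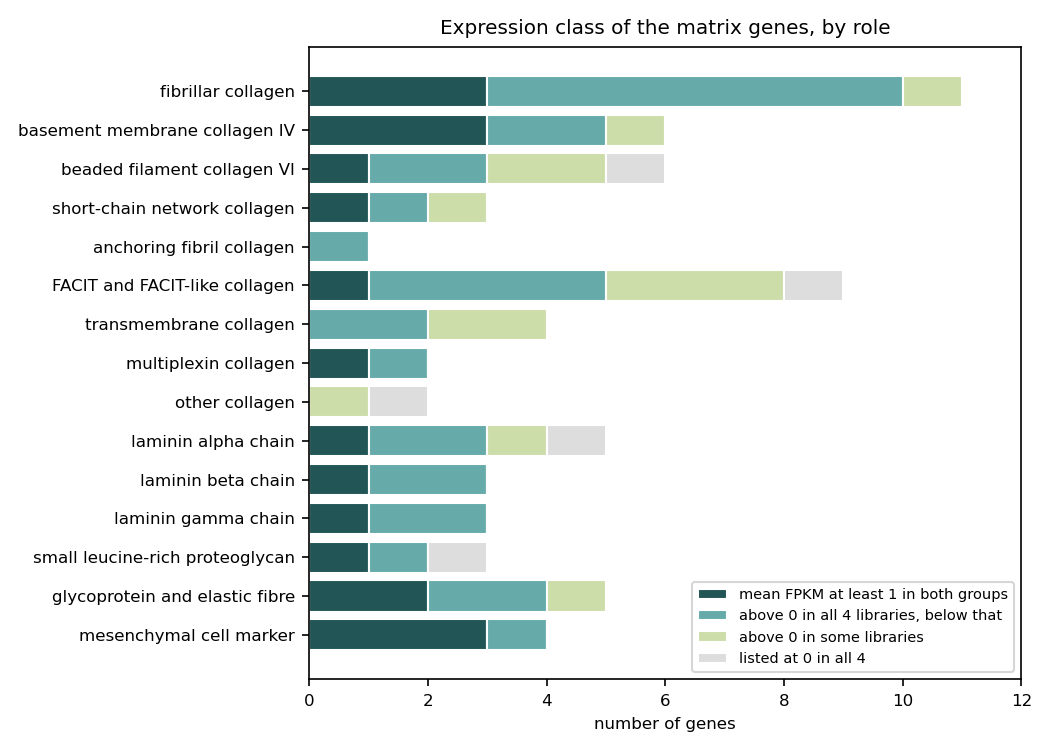
Number of matrix genes in each expression class (x axis, number of genes) for each of 15 structural roles (y axis). Expressed genes (darkest) were spread over 12 of the roles, and the 5 genes listed at 0 fell in collagen VI, FACIT, other collagen, laminin alpha and small leucine-rich proteoglycan.

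The 10 expressed collagen chains came from several architectures rather than from one. They were the fibrillar chains *Col1a2*, *Col5a1* and *Col5a2*, the basement membrane chains *Col4a1*, *Col4a2* and *Col4a5*, the beaded filament chain *Col6a1*, the network-forming *Col8a1*, the fibril-associated *Col16a1*, and *Col18a1*, the precursor of endostatin. Of the laminin chains 3 were expressed, 1 of each class: *Lama5*, *Lamb1* and *Lamc1*, which can assemble with each other into a trimer. The remaining expressed genes were *Dcn*, *Fn1*, *Sparc*, *Pdgfra*, *Thy1* and *Vim*.

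Summed over the 67 genes, the level was 168 and 164 FPKM in shNC against 165 and 158 in shNAT10. This was 0.0772% to 0.0839% of the protein-coding FPKM total. *Dcn* and *Vim* held 48.5% to 57.8% of the sum in each library. The 44 collagen chains together summed to 32.8 to 37.4 FPKM, less than *Vim* alone in any library.

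Markers of fibroblast stroma among the members were split. *Dcn*, *Pdgfra*, *Thy1* and *Col1a2* were expressed, and *Col3a1* averaged over 1 FPKM in shNAT10 only. Other stromal markers, and the elastic fibre genes *Fbn1* and *Eln*, did not reach the expressed level. *Col1a1*, the major chain of type I collagen, had 0.480 and 0.667 FPKM in shNC against 0.546 and 0.527 in shNAT10. *Postn*, a matricellular protein of fibroblasts, had 0.108 and 0.0871 FPKM in shNC against 0.165 and 0.247 in shNAT10. It was called higher only without shNAT10 library 1 (0.82) and without the trend (0.62). *Pdgfrb*, a receptor of pericytes and stroma, had 0.116 to 0.171 FPKM over the 4 libraries. *Fbn1*, which forms the microfibrils of elastic fibres, had 0.33 to 0.618 FPKM. *Eln*, the elastic fibre core protein, was above 0 in 1 library only, at 0.0312 FPKM from 3 fragments, and *Lum*, a proteoglycan of collagen-rich stroma, was listed at 0 in all 4. The others listed at 0 were *Col6a6*, *Col9a1*, *Col26a1* and *Lama1*. A count of 0 allows up to 3 fragments, or 0.196 to 0.255 FPKM for 1 kb of exon depending on the library, a limit that covers counting error only.

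Chains that assemble with each other differed in level per kilobase. The length used joins all annotated exons of a gene, so these ratios depend on the annotation. It was 4380 bp for *Col6a1* and 8326 bp for *Col6a2*, and 12426 bp for *Col1a2* and 6563 bp for *Col1a1*. *Col1a2* stood at 3.35 to 5.65 times *Col1a1*, although type I collagen takes more of the *Col1a1* chain. *Col6a1* stood at 6.02 to 14.4 times *Col6a2* and at 3.28 to 9.50 times *Col6a3*, its partners in type VI collagen. *Col4a1* stood at 1.98 to 2.78 times *Col4a2*. The groups overlapped in each of these ratios except that of *Col6a1* to *Col6a2*, which was 9.69 and 6.02 in shNC against 14.4 and 11.5 in shNAT10. With 2 libraries each the exact permutation test cannot give a p below 0.33.

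**Figure D2:**
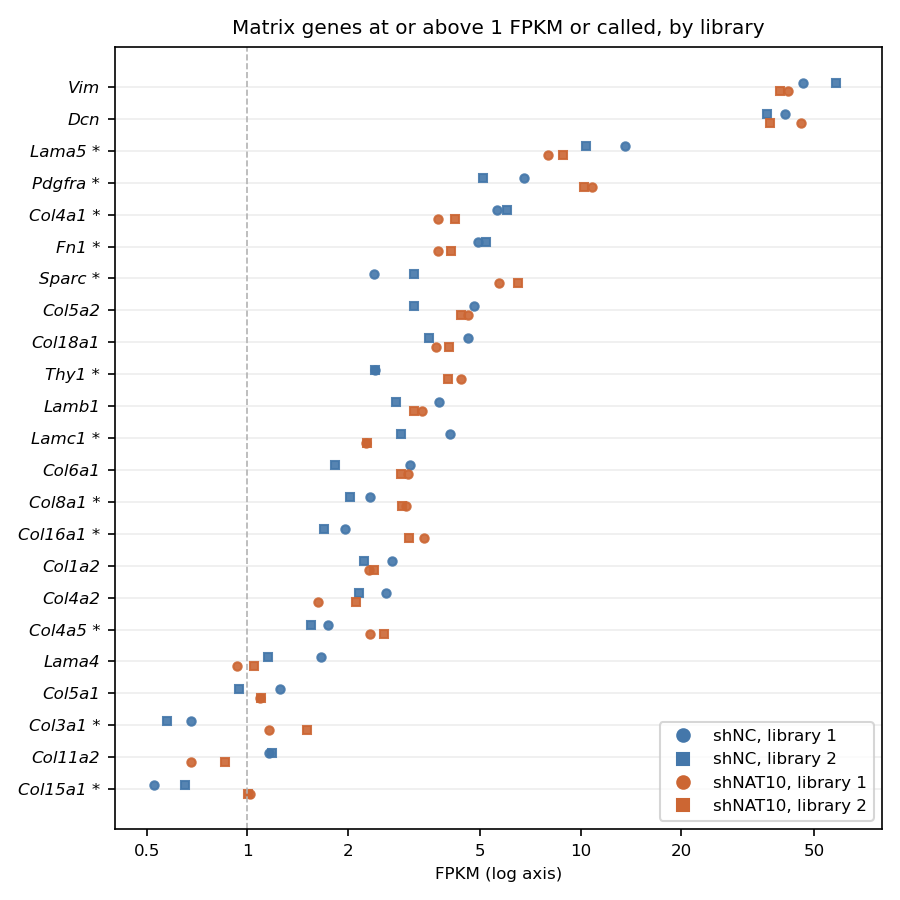
FPKM (log axis) of the 23 matrix genes with a mean of at least 1 FPKM in either group or called between groups, with each library as a point (shNC blue, shNAT10 orange, circles for library 1, squares for library 2). *Vim* and *Dcn* stand apart from the rest at 36.2 to 58.4 FPKM, the dashed line marks 1 FPKM, and asterisks mark the 12 called genes, whose groups do not overlap.

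The groups were then compared gene by gene. A gene was tested when its mean over the 4 libraries was at least 0.1 FPKM, and called at a fold change over 1.2 with an unadjusted p of at most 0.05 in limma, the threshold of the study's own legend. Of the 67 genes 43 were tested, and 24 lay below that mean (0 to 25 fragments over the 4 libraries). Of the 43, 8 were called higher in shNAT10, or 18.6%, against a background of 8.41% over all 20116 genes tested. Another 4 were called lower, or 9.30%, against a background of 7.83%, and 31 were called neither way. The median log2 fold change of the 43 genes was -0.06, against 0.01 over all genes tested. In these bulk RNA data fewer cells of a type and less RNA per cell cannot be told apart.

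None of the matrix genes (0 of 43) had an adjusted p under 0.05 in limma, where 0.437% of all genes had, while 12 had an unadjusted p under 0.05. The lowest adjusted p among them was 0.103. With limma-voom on the recovered fragments, 5 had an adjusted p under 0.05 and were higher, against a background of 4.23%, and 4 were lower, against 3.65%. By the fold and unadjusted p rule that fit called 9 higher, against a background of 10.1%, and 8 lower, against 9.34%. When libraries were scaled to the same fragment total over genes of every biotype, an alternative added after seeing the data, the median of all genes moved to 0.39. In that fit 11 matrix genes were called higher, against a background of 26.2%, and 0 lower, against 1.55%. The falls given below are therefore falls relative to the bulk of genes.

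**Figure D3:**
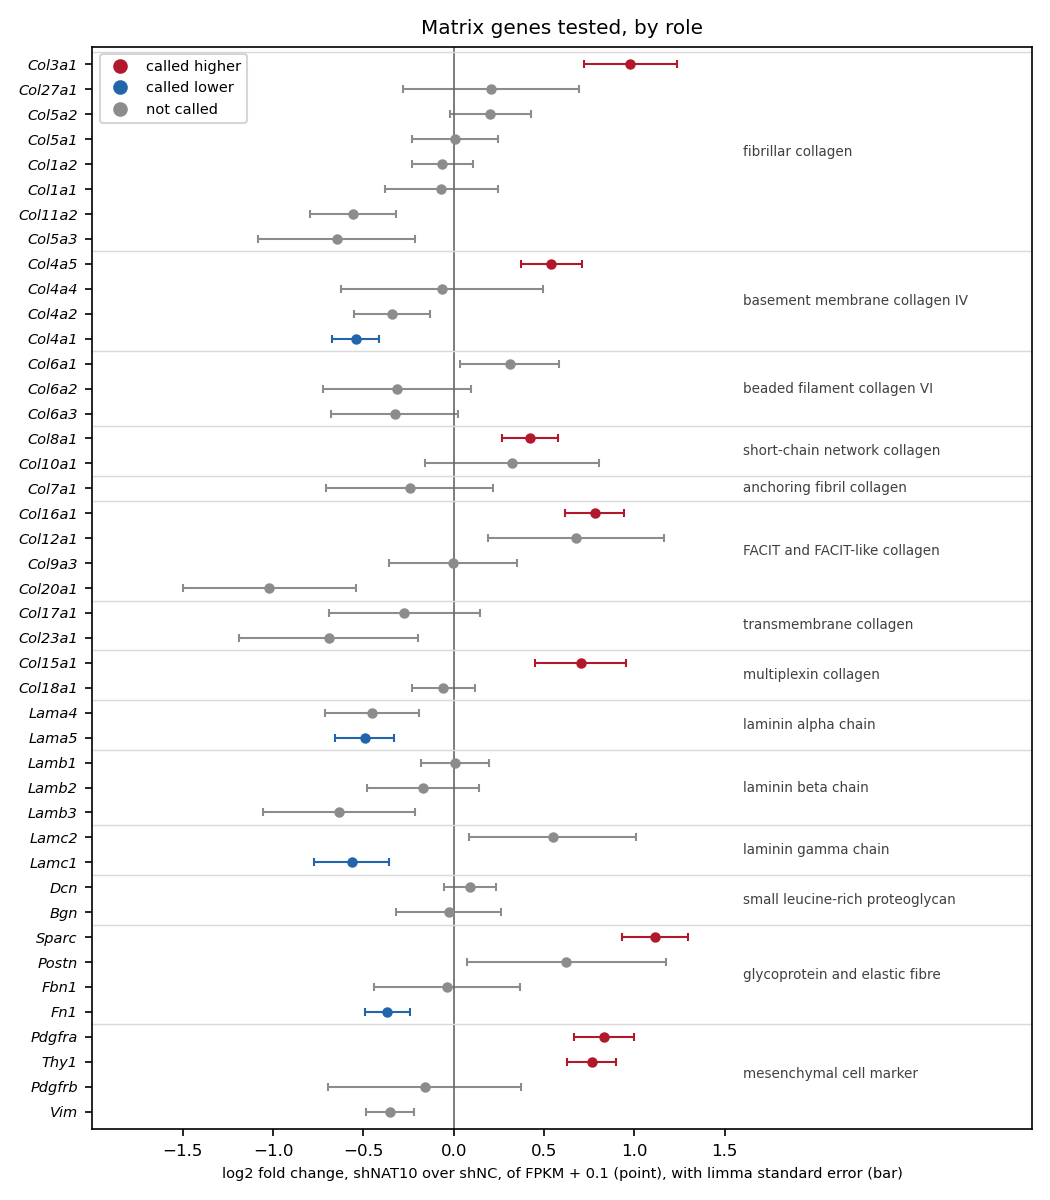
Log2 fold change of shNAT10 over shNC on the log2(FPKM + 0.1) scale (x axis; point, with the limma standard error as bar) for the 43 tested matrix genes, grouped by role (y axis). The 8 genes called higher (red) lie between 0.42 and 1.11, the 4 called lower (blue) between -0.57 and -0.37, and the widest bars belong to genes of low FPKM.

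Among the fibrillar collagens 8 of 11 chains were tested, and 1 was called. *Col3a1*, the chain of type III collagen found in pliable tissues, had 0.677 and 0.575 FPKM in shNC against 1.16 and 1.51 in shNAT10. Both shNAT10 libraries were above both controls, with a log2 fold change of 0.98 (standard error 0.26, limma adjusted p = 0.198; limma-voom adjusted p = 0.00203). The call was lost without shNC library 1 (1.08), shNC library 2 (0.87) or shNAT10 library 2 (0.80).

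The type I and type V chains were not called in limma, and their difference from *Col3a1* was not tested. *Col1a2* had 2.71 and 2.24 FPKM in shNC against 2.31 and 2.40 in shNAT10, with overlapping groups (log2 fold change -0.06, standard error 0.17). *Col1a1* gave -0.07 (standard error 0.31). *Col5a2*, a minor chain that limits fibre width, had 4.77 and 3.15 FPKM in shNC against 4.60 and 4.36 in shNAT10 (log2 fold change 0.20, standard error 0.23). It was called higher without shNC library 1 (0.49) and with the scaling over genes of every biotype (0.60), while *Col5a1* gave 0.01 (standard error 0.24). *Col3a1* and *Col5a2* lie tail to tail on chromosome 1, 24614 bp apart with no protein-coding gene between them. *Col11a2*, a chain of cartilage collagen XI, had 1.16 and 1.18 FPKM in shNC against 0.676 and 0.859 in shNAT10, a log2 fold change of -0.56 that missed the call (limma adjusted p = 0.346). It was called lower in limma-voom (-0.61) and in limma without the trend.

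Type IV collagen, the sheet of the basement membrane, held 1 call in each direction. *Col4a1* (chr8:11198423-11312826, minus strand) had 5.61 and 6.0 FPKM in shNC against 3.73 and 4.19 in shNAT10. Both shNAT10 libraries were below both controls (log2 fold change -0.54, standard error 0.13, limma adjusted p = 0.172; limma-voom adjusted p = 0.0122). The call was lost without shNC library 2 (-0.49), without shNAT10 library 1 (-0.46), and with the scaling over genes of every biotype (-0.14).

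*Col4a2* (chr8:11312805-11449287, plus strand), which joins *Col4a1* in the common type IV trimer, had 2.61 and 2.16 FPKM in shNC against 1.62 and 2.12 in shNAT10. Its log2 fold change of -0.34 (standard error 0.21) was not called. The genes are transcribed away from each other, and their annotated 5′ ends overlap by 22 bp.

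*Col4a5* (chrX:141475385-141689234, plus strand), a chain of the kidney-type trimers, had 1.75 and 1.55 FPKM in shNC against 2.32 and 2.56 in shNAT10. It was called higher (log2 fold change 0.54, standard error 0.17, limma adjusted p = 0.241; limma-voom adjusted p = 0.061). Leaving out any of the 4 libraries ended this call, at log2 fold changes of 0.46 to 0.62, and it was also lost with the replicate block. Its head-to-head neighbour *Col4a6*, 1308 bp away, had 3 fragments over the 4 libraries. *Col4a3* and *Col4a4*, also head to head and 71 bp apart, had 16 and 77 fragments. Among the 3 divergent type IV pairs, only *Col4a1* and *Col4a2* were therefore both at 1 FPKM or more.

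Of the collagens that decorate fibres or form other networks, 3 were called in limma, all higher. *Col16a1*, a fibril-associated chain, had 1.97 and 1.70 FPKM in shNC against 3.38 and 3.05 in shNAT10. Its log2 fold change came to 0.78 (standard error 0.16, limma adjusted p = 0.142; limma-voom adjusted p = 0.00341), lost without shNAT10 library 1 (0.71) or library 2 (0.85).

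Further fibril-associated chains, named after their values were seen, were called only in other fits. *Col20a1* had 0.331 and 0.295 FPKM in shNC against 0.0930 and 0.114 in shNAT10, from 6 to 20 fragments per library. The groups did not overlap, and the log2 fold change (-1.02, standard error 0.48) was not called in limma but was in limma-voom (-1.53), without the trend and when any of the 4 libraries was left out (-1.10 to -0.95). *Col12a1* had 0.112 and 0.238 FPKM in shNC against 0.361 and 0.296 in shNAT10, from 20 to 69 fragments. It was not called in limma (0.67, standard error 0.49), and was called higher in limma-voom (0.97) and without shNC library 2 (1.01).

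*Col15a1*, a multiplexin of the zone beneath basement membranes, had 0.523 and 0.650 FPKM in shNC against 1.02 and 1.01 in shNAT10, from 39 to 98 fragments per library. It was called at 0.70 (standard error 0.25, limma adjusted p = 0.285; limma-voom adjusted p = 0.0858), and leaving out any of the 4 libraries ended the call at 0.57 to 0.84, as did no filter or the replicate block. Its relative *Col18a1* had 4.57 and 3.52 FPKM in shNC against 3.69 and 4.01 in shNAT10, with overlapping groups (-0.06, standard error 0.17). *Col8a1*, a short-chain collagen of vessel walls and Descemet's membrane, had 2.33 and 2.03 FPKM in shNC against 2.99 and 2.91 in shNAT10. Its call at 0.42 (standard error 0.15, limma adjusted p = 0.288) was not past an adjusted p of 0.05 in limma-voom (0.114). It was lost without shNC library 2 (0.33) or either shNAT10 library (0.40 and 0.44), and also with the same FPKM total over protein-coding genes, quantile normalization, no trend or the replicate block (0.41 to 0.42).

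None of the 3 tested chains of type VI collagen (0 of 3) was called in limma or limma-voom. *Col6a1* had 3.07 and 1.83 FPKM in shNC against 3.04 and 2.89 in shNAT10, a wider gap within shNC than between the groups. Its log2 fold change of 0.31 became 0.67 without shNC library 1 and 0.70 with the scaling over genes of every biotype, and it was called higher in both. The collagens anchored in the cell membrane and the anchoring fibril chain *Col7a1* were all below 1 FPKM, and none of the 3 tested was called by either tool.

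The laminins held 2 calls in limma, both lower, among 7 tested chains. *Lama5* (chr2:180176373-180225859, minus strand), a laminin alpha chain of many adult basement membranes, had 13.6 and 10.4 FPKM in shNC against 7.99 and 8.84 in shNAT10. It was the most abundant chain of any laminin or collagen in all 4 libraries. The groups did not overlap (log2 fold change -0.49, standard error 0.16, limma adjusted p = 0.258; limma-voom adjusted p = 0.00858). The call was lost without shNC library 1 (-0.30), without either shNAT10 library (-0.42 and -0.56), and with the scaling over genes of every biotype (-0.09). It was also lost with the same fragment total over protein-coding genes (-0.44) and in limma without the trend.

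*Lamc1*, the gamma chain of most laminins, had 4.04 and 2.88 FPKM in shNC against 2.26 and 2.29 in shNAT10. It was called at -0.57 (standard error 0.21, limma adjusted p = 0.289; limma-voom adjusted p = 0.029), and its shNC libraries lay further apart than its shNAT10 libraries. The call was lost without shNC library 1 (-0.33) or either shNAT10 library (-0.56 and -0.57), and with the scaling over genes of every biotype (-0.17). It was also lost with a pseudocount of 1 (-0.43), without a filter, with the same FPKM or fragment total over protein-coding genes (-0.57 and -0.51), and without the trend. *Lamb1*, the matching beta chain, had 3.76 and 2.79 FPKM in shNC against 3.34 and 3.16 in shNAT10, with overlapping groups and a log2 fold change of 0.01 (standard error 0.19).

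The ratio of *Lama5* to *Lamc1* was 3.35 and 3.60 in shNC and 3.53 and 3.87 in shNAT10. The ratio of *Lamb1* to *Lamc1* was 0.930 and 0.967 in shNC and 1.48 and 1.38 in shNAT10, without overlap (exact permutation p = 0.33, the smallest that 2 against 2 libraries allow). *Lama4*, the alpha chain of vessel and mesenchymal laminins, had 1.66 and 1.15 FPKM in shNC against 0.931 and 1.04 in shNAT10 and was not called in limma (-0.45, standard error 0.26). By the same rule limma-voom called it lower (-0.48). *Lamb3*, a beta chain of epithelial laminins that was named after its values were seen, was called lower only without the trend (-0.63). *Lama1*, *Lama2* and *Lama3* had 0, 5 and 12 fragments over the 4 libraries.

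Among the glycoproteins and proteoglycans, the called genes went in opposite directions. *Sparc*, a collagen-binding glycoprotein secreted during matrix remodelling, had 2.40 and 3.16 FPKM in shNC against 5.70 and 6.49 in shNAT10. This was the largest rise among the called matrix genes (log2 fold change 1.11, standard error 0.18, limma adjusted p = 0.103; limma-voom adjusted p = 0.000106). It was lost only without shNAT10 library 2 (1.02). *Fn1*, fibronectin, the fibre on which cells assemble other matrix, had 4.91 and 5.21 FPKM in shNC against 3.72 and 4.08 in shNAT10. Its call at -0.37 (standard error 0.13, limma adjusted p = 0.266; limma-voom adjusted p = 0.0745) ended when any of the 4 libraries was left out (-0.43 to -0.30). It also ended with the replicate number as a block, without the trend and with the same fragment total over protein-coding genes (-0.31), and the scaling over genes of every biotype turned its sign (0.03). An antisense RNA gene, *Apol7d*, shares 2.50% of the exon length of *Fn1*.

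*Dcn*, decorin, a small proteoglycan that binds collagen fibres, was by its mean the second most abundant of the 67 genes. It had 41.1 and 36.2 FPKM in shNC against 45.9 and 36.8 in shNAT10, with overlapping groups and a log2 fold change of 0.09 (standard error 0.14). It was called higher with the scaling over genes of every biotype (0.50). *Lum*, 46984 bp away on the same strand with no protein-coding gene between, was listed at 0 although decorin and lumican are often made by the same stromal cells. *Bgn*, biglycan, the closest relative of decorin, had 0.893 and 1.09 FPKM in shNC against 0.784 and 1.19 in shNAT10 (log2 fold change -0.03, standard error 0.29). *Dcn* stood at 31.0 to 58.5 times *Bgn*.

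Of the cell surface and cytoskeletal markers 2 were called in limma, both higher. *Pdgfra*, the receptor that marks fibroblasts and mesenchymal progenitors, had 6.74 and 5.08 FPKM in shNC against 10.8 and 10.2 in shNAT10. It rose by 0.83 on the log2 scale (standard error 0.17, limma adjusted p = 0.132; limma-voom adjusted p = 3.04e-05), and the call was lost without shNAT10 library 1 (0.79) or library 2 (0.88). An antisense RNA gene, *Gm42802*, shares 4.55% of its exon length. *Thy1*, a surface glycoprotein of fibroblasts, T cells and some stem cells, had 2.42 and 2.42 FPKM in shNC against 4.36 and 3.99 in shNAT10. It was the single call that held without any 1 of the 4 libraries (log2 fold change 0.76, standard error 0.14, limma adjusted p = 0.116; limma-voom adjusted p = 0.0195).

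*Vim*, vimentin, the intermediate filament protein of mesenchymal cells and also of leukocytes, had 46.4 and 58.4 FPKM in shNC against 41.8 and 39.7 in shNAT10. The groups did not overlap, but the log2 fold change of -0.35 (standard error 0.13) just missed the call (limma adjusted p = 0.306). It was called lower without shNC library 1 (-0.52), with a filter of 1 FPKM, with the same FPKM total over protein-coding genes and with quantile normalization (-0.36 to -0.32). With limma-voom its adjusted p was 0.0385, and with the scaling over genes of every biotype the value was 0.05.

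Genes that fold, cross-link, bind or cut matrix were examined next, as lists of named genes, against the same backgrounds of 8.41% called higher and 7.83% called lower. Of 21 tested genes for collagen synthesis in the endoplasmic reticulum, 4 were called lower and 1 higher. *P4hb*, the subunit that prolyl 4-hydroxylase shares with protein disulfide isomerase, had 216 and 273 FPKM in shNC against 153 and 161 in shNAT10 (log2 fold change -0.63). *Ppib*, a prolyl isomerase that helps collagen fold, had 123 and 149 FPKM in shNC against 91.8 and 94.2 in shNAT10 (-0.54). *Plod2*, a lysyl hydroxylase, had 28.3 and 40.9 FPKM in shNC against 21.9 and 23.2 in shNAT10 (-0.59). *P4hb* and *Ppib* also serve secreted proteins in general.

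The other calls of that list were *Mia3* (-0.49), a receptor that loads collagen for export, and *P3h4* (1.25), a partner of collagen prolyl and lysyl hydroxylation. Both were named after their values were seen. The 4 falls were no longer called when either shNAT10 library was left out (0 in each case), and 2 were called without the trend. Without shNC library 1 a second gene was called higher, and 3 of the 4 falls were still called.

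For collagen maturation and cross-linking, 11 genes were tested, with 1 called in each direction. *Loxl2*, a lysyl oxidase that cross-links collagen IV, had 1.40 and 1.76 FPKM in shNC against 0.251 and 0.326 in shNAT10, from 17 to 113 fragments per library (log2 fold change -2.11, standard error 0.28, limma adjusted p = 0.081). *Pcolce*, which enhances procollagen processing, had 4.12 and 4.80 FPKM in shNC against 8.15 and 8.38 in shNAT10 (0.88, standard error 0.13, limma adjusted p = 0.084).

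Of 22 tested matrix receptors, 3 were called higher and 0 lower. By the same rule limma-voom called 2 lower and limma without the trend 3, and 1 was lower without either shNC library or without shNAT10 library 2. The 3 were *Cd44*, the hyaluronan receptor (17.7 and 20.3 FPKM in shNC, 26.3 and 25.2 FPKM in shNAT10), and the heparan sulfate carriers *Sdc4* (2.54 and 2.31, then 5.88 and 5.48 FPKM) and *Sdc2* (2.15 and 2.20, then 3.21 and 3.66 FPKM). In each of them both shNAT10 libraries were above both controls. Of the 3 calls 2 held without shNC library 1, shNC library 2 or shNAT10 library 1, and 1 without shNAT10 library 2.

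Among 23 tested proteases and inhibitors, 4 were called higher and 2 lower. Most or all of the 4 were no longer called without shNC library 2 or either shNAT10 library, and the 2 did not both hold in any of those fits. *Mmp13*, a collagenase of fibrillar collagen, had 18.3 and 15.2 FPKM in shNC against 5.87 and 5.08 in shNAT10. It alone in these lists of matrix processing and receptor genes had an adjusted p under 0.05 in limma (log2 fold change -1.59, standard error 0.15, adjusted p = 0.049). Of 8 tested further basement membrane genes, 3 were called higher, or 1 without shNAT10 library 2. *Nid1*, nidogen, which links laminin to type IV collagen, had 5.02 and 4.54 FPKM in shNC against 7.31 and 7.25 in shNAT10 (0.60). The fibulins *Efemp2* (0.73) and *Efemp1* (2.03) were the other two, *Efemp1* with 20 to 161 fragments per library. With the scaling over genes of every biotype, the calls higher and lower were 3 and 0 for collagen synthesis, 3 and 1 for maturation and cross-linking, 9 and 0 for receptors, 7 and 1 for proteases and inhibitors, and 5 and 0 for further basement membrane genes, against the backgrounds of 26.2% and 1.55%.

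**Figure D4:**
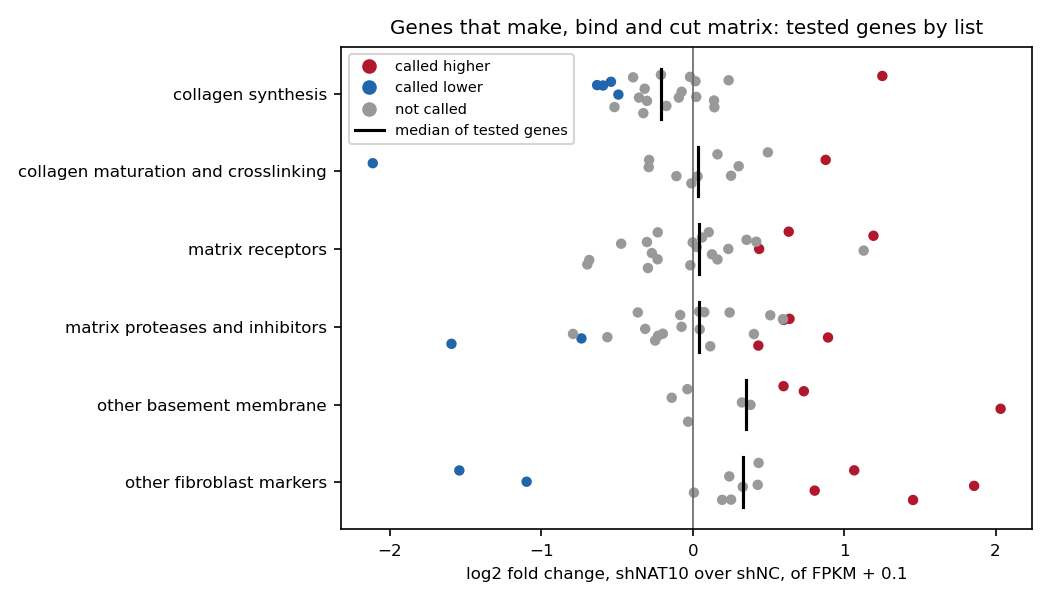
Log2 fold change of shNAT10 over shNC on the log2(FPKM + 0.1) scale (x axis) of the tested genes in 5 lists of matrix processing, receptor and basement membrane genes and in a list of further fibroblast markers (y axis). Points are genes (red called higher, blue called lower, grey not called) and the black bar is the median, which lay at -0.21 for collagen synthesis and 0.35 for further basement membrane genes.

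Markers of cells that deposit matrix were read beside these results, against the same backgrounds of 8.41% called higher and 7.83% called lower. Of 19 further fibroblast markers in the deposited values, 7 were expressed, and of 13 tested 4 were called higher (2 of them without either shNC library) and 2 lower (1 without either shNAT10 library). *Tnc*, tenascin C, had 34.8 and 17.1 FPKM in shNC against 8.42 and 8.21 in shNAT10 (-1.54), with the shNC libraries differing from each other about as much as the lower of them differed from shNAT10. *Pi16* had 6.85 and 6.38 FPKM in shNC against 2.74 and 3.37 in shNAT10 (-1.10). *Prrx1*, a mesenchymal transcription factor, had 3.0 and 3.65 FPKM in shNC against 7.86 and 6.30 in shNAT10 (1.07).

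The summed level of the fibroblast list was 39.1 to 55.7 FPKM in shNC and 34.6 to 39.9 FPKM in shNAT10. Without *Tnc* the sum was 20.9 and 22.0 FPKM in shNC against 31.4 and 26.4 in shNAT10, and the median log2 fold change of the tested genes of the whole list was 0.33. With the scaling over genes of every biotype 7 of this list were called higher and 2 lower, against backgrounds of 26.2% and 1.55%. That of the smooth muscle and pericyte list was 7.50 to 7.99 FPKM and 7.89 to 9.34 FPKM, with 1 gene called in each direction of 6 tested. The rise was not called without either shNC library or without shNAT10 library 2, nor the fall without shNC library 2 or either shNAT10 library (0 in each case), and with the replicate block or the scaling over genes of every biotype the fall was not called either. Endothelial and epithelial lists summed to at most 0.376 FPKM in any library. The granulosa list of 10 genes summed to 6.49 and 3.72 FPKM in shNC against 8.40 and 8.72 in shNAT10, without overlap, and 4 genes were tested, with a median log2 fold change of 0.73. *Fst*, follistatin, and *Inhba*, an activin subunit, carried the sum at 1.15 to 4.89 FPKM and 2.33 to 3.33 FPKM. Of the 4 none (0) was called in the main limma fit. With a filter of 1 FPKM 2 were called higher, and 1 with the same fragment total over protein-coding genes or the replicate block. The scaling over genes of every biotype called 2 higher, against a background of 26.2%. Leaving out either shNC library also gave calls higher, and both *Fst* and *Inhba* were called higher in limma-voom. *Foxl2* and *Fshr* were listed at 0. The leukocyte and mast cell list summed to 833 to 885 FPKM in shNC and 804 to 824 FPKM in shNAT10. Its *Fcer1g* had 43.4 and 47.8 FPKM in shNC against 21.9 and 23.4 in shNAT10 (log2 fold change -1.01, limma adjusted p = 0.049). Of the 14 genes tested in that list 2 were called higher and 7 lower, against backgrounds of 8.41% and 7.83%. The 2 became 1 without shNAT10 library 1, and the 7 became 3 without either shNAT10 library and 4 without the trend. With the scaling over genes of every biotype 5 were called higher and 1 lower, against backgrounds of 26.2% and 1.55%. The part of any of these cell markers in the differences between groups was not tested.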

How the data were processed

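Cultures labelled as FGSCs, with control shRNA (shNC) or *Nat10* shRNA (shNAT10), were profiled by Long RNA-seq, 2 libraries per group, grouped by the sample titles. The authors deposited FPKM for 53465 genes per library. According to the methods libraries were rRNA-depleted, whereas the labels describe Oligotex mRNA isolation with a directional kit. Per the submitters' processing notes, cutadapt, HISAT2 and DESeq2 were used on mm10. The program and annotation that assigned reads to genes are not given in the sources used here. A second deposited table holds the authors' own log2 fold change and p-values and was not used. Columns of single libraries left out numbered 0.

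Whole fragments were recovered from FPKM with GENCODE M21 exon lengths. Of the values under 50 fragments, 96.0% to 96.6% came within 0.02 of a whole number, where 4% would by chance, and 63 of the 67 members came out whole in all libraries (not *Col2a1*, *Col8a1*, *Col11a2* and *Col17a1*). Depth (11.1 to 14.9 M fragments) sets the precision. The comparison of shNAT10 with shNC used lmFit and eBayes with trend (limma 3.58.1, R 4.3.3), two-sided, on log2(FPKM + 0.1). It took in 20116 genes whose FPKM averaged 0.1 or more over the libraries, with Benjamini-Hochberg adjusted p over all of them. Fold changes on this scale understate those of low genes. The replicate number was not a term, since the methods name none. The script was tested on simulated data.

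Named were members at 1 FPKM or more in either group, called members and 20 members chosen by name. In the lists of matrix processing, receptor, basement membrane and fibroblast genes, those with an adjusted p under 0.05 were named. Where none had, the 3 called genes of highest FPKM were. Apart from *Fcer1g*, genes of the other marker lists were named outside this rule. The members and lists were chosen with earlier results of these data known. Alternatives were pseudocounts, filters, scalings, no trend, a replicate block, leaving out each library and limma-voom on recovered fragments. Other steps ran in Python 3.11.15 (numpy 2.4.6, pandas 2.3.3, scipy 1.17.1, matplotlib 3.10.9).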

Additional observations from a re-analysis of the deposited data

How the results depend on the processing

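Of the 12 calls, those of *Pdgfra*, *Col4a1*, *Sparc*, *Thy1*, *Col16a1* and *Col3a1* held under every planned pseudocount, filter, scaling and variance setting that tested them, the replicate block and limma-voom included. Of the 8 genes called higher 5 were called with the replicate block. When a library was left out, 1 to 7 genes were called higher, among them 1 to 5 of the 8, and 1 to 3 lower, among them 0 to 2 of the 4; a group of 1 library is there assumed to vary like the other. Lower calls numbered 1 when libraries had the same fragment total over protein-coding genes, 8 with limma-voom on recovered fragments, the 4 among them, and 4 without the trend, 1 of them among the 4. Higher and lower calls numbered 1 and 2 without shNAT10 library 2 and 4 and 1 without shNAT10 library 1, of which 1 and 1, and 3 and 0, were among the original calls. With the same fragment total over genes of every biotype, chosen after seeing the data, 0 were called lower, the median of the 43 tested genes was 0.33, against 0.39 over all genes, and the log2 fold change of *Fn1* turned to 0.0304. The median otherwise ranged from -0.18 to 0.01 over the fits that left out a library. The cause of these changes was not tested. A fit that leaves out a library has fewer degrees of freedom, so a call can end there with its fold change unchanged or larger. Median-ratio rescaling returned the deposited values. The numbers gave no sign of pairing: deviations of same-numbered libraries had a correlation of 0.0071 across genes. That value cannot show whether same-numbered libraries were prepared together. The replicate block ended the calls of *Fn1*, *Col8a1*, *Col4a5* and *Col15a1*. The 24 genes not tested lay under the filter on mean FPKM.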
